A study of Rattus norvegicus with 2 samples.

Results

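The endoplasmic reticulum (ER) folding machinery was followed here through 10 genes: the lectin chaperones Canx and Calr, the disulfide isomerases Pdia3, P4hb, Pdia6 and Pdia4, the chaperones Hsp90b1, Hyou1 and Sdf2l1, and the transcription factor gene Xbp1. They were taken by symbol from the 18049 genes of the expression table, by a rule that uses no measured value, and all 10 were found, each in 1 row. The list itself was drawn up with earlier results of these data known. The table comes from rat oligodendrocyte precursor cells (OPCs), the glial cells that mature into myelin-forming oligodendrocytes. The cells were wild type and were panned from cortices of pups at postnatal days 2 to 4. They were electroporated with a scrambled siRNA (siSCR) or one that targets Hsc70 (siHsc70), the constitutive HSP70 chaperone of the cytosol, encoded by Hspa8. Both groups were at day 2 of differentiation with thyroid hormone (T3, 60 nM), the stage that the series calls immature oligodendrocytes. That medium also held B-27, N2, 10 ng/mL CNTF, 5 uM forskolin, 10 ng/mL biotin and 5 ug/mL insulin, and it lacked the PDGF-AA, bFGF and NT3 of the preceding growth medium. Each group is 1 library, a single siRNA sequence is given for Hsc70, and the number of cultures or animals behind a library is not given in the sources used here. Differences therefore describe these 2 libraries, and no test between the groups was possible.

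Proteins bound for the cell surface, the secretory route or myelin are folded in the ER. There, calnexin and calreticulin hold newly glycosylated chains, disulfide isomerases make and rearrange their sulfur bridges, and HSP70- and HSP90-type chaperones bind unfolded stretches. When unfolded protein collects in the ER, the sensors IRE1, PERK and ATF6 start the unfolded protein response, in which spliced Xbp1 and cleaved ATF6 raise transcription of most of these genes. Maturing oligodendrocytes make large amounts of membrane and myelin protein and depend on this machinery.

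Promoters of several of these genes are textbook carriers of the ER stress response element (ERSE), in which CCAAT and CCACG stand 9 bases apart. Matches in them were therefore foreseeable, and they are shown as a description of the promoters only. RefSeq promoter windows (assembly GRCr8, 250 bases before to 50 after each annotated start site) were found for 8 of the 10 genes, all but Pdia3 and Pdia6. A complete ERSE, searched on both strands with any letters between its parts, was present in 4 of the 8 (Calr, Canx, Hsp90b1 and Xbp1). Over all 27457 genes with a window the share was 0.0765% (0.0657% of the 33469 windows). The related ERSE-II, in which 1 base parts ATTGG and CCACG (both strands searched), was present in Hyou1 and in 0.0619% of genes. The unfolded protein response element (UPRE) TGACGTGG, also searched on both strands, was also present in Hyou1, against 0.681% of genes. In the stretches below, written 5′ to 3′ on the strand of the gene, capitals mark the fixed letters of these motifs; in Calr, in Hyou1 and in the second Hsp90b1 site the ERSE or ERSE-II lies on the opposite strand and reads CGTGG first.
Calr: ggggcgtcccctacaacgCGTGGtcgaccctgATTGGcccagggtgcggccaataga
Canx: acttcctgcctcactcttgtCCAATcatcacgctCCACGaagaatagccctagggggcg
Hsp90b1: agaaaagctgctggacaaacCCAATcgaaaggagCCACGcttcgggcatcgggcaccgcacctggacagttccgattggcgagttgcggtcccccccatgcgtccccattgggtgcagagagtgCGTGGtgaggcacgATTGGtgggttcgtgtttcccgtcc
Xbp1: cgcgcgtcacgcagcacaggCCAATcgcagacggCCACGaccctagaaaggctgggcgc
Hyou1: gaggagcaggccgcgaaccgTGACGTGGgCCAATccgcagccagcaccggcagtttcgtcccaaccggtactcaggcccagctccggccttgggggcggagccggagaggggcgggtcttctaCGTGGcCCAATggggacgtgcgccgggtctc
These stretches lie at chr19:40213117-40213173, plus strand (Calr), chr10:35158049-35158107, minus strand (Canx), chr7:23012327-23012489, minus strand (Hsp90b1), chr14:84604538-84604596, plus strand (Xbp1) and chr8:53602671-53602824, plus strand (Hyou1). The Calr and Canx sites began 232 and 230 bases upstream of the start site, the 2 Hsp90b1 sites 176 and 72 bases upstream, and the Xbp1 site 65 bases upstream. Hyou1 held 2 ERSE-II sites, beginning 188 and 88 bases upstream of the first of its annotated starts, and its TGACGTGG shared the letters CGTGG with the first of them. The short part CCACG, which every ERSE contains, was found for all 8 genes but also for 34.1% of all genes with a window. A match is a description of the letters and not a measured binding site.

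**Figure D1:**
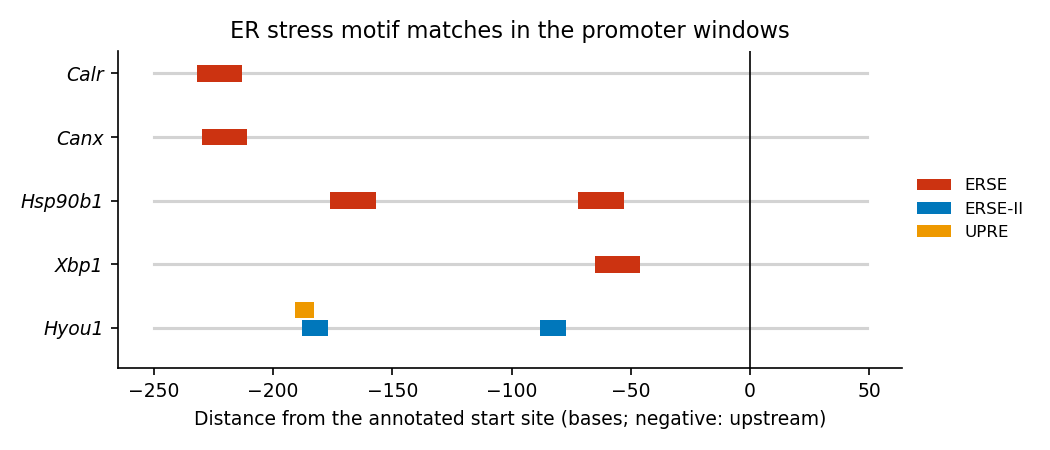
Positions of ERSE, ERSE-II and UPRE (TGACGTGG) matches in the promoter windows of 5 ER folding genes; the horizontal axis is the distance in bases from the annotated start site (vertical line). The Calr and Canx sites lie furthest upstream, beginning 232 and 230 bases before the start site. Hsp90b1 carries 2 ERSE sites, and Hyou1 carries 2 ERSE-II sites and a UPRE that overlaps the first of them.

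The siHsc70 library had less of the targeted transcript: Hspa8 stood at 1399 CPM (counts scaled to a common total) with siSCR and 507 CPM with siHsc70. Total estimated counts were 19085626 in siSCR and 18130817 in siHsc70. Values are CPM of estimated counts scaled by TMM, and 13518 genes were called measured, their mean over both libraries being 1 CPM or more. All 13 oligodendrocyte lineage markers were measured in both libraries, 12 of them lower in siHsc70 and 9 at least 2-fold lower, and their summed level was 8558 CPM with siSCR and 3087 CPM with siHsc70. Astrocyte markers were present too (7 of 7 measured, 4 higher and 3 lower in siHsc70, summed level 3547 and 2895 CPM). So were neuron markers (7 of 7 measured, 2 higher and 5 lower in siHsc70, summed level 735 and 485 CPM). The 2 measured microglial markers of 7, Tmem119 and Cd68, summed to 5.04 and 9.84 CPM. Of those below the 1 CPM limit, P2ry12 was at 15 counts in siSCR and 5 in siHsc70. Csf1r was at 8 and 2 counts and Aif1 at 0 and 1, and Cx3cr1 and C1qa had no row. In bulk RNA, fewer cells of a type and less RNA per cell cannot be told apart, and the part of these marker shifts in the values below was not tested.

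The ER folding genes differed little between the libraries, with Sdf2l1 as the exception. Of the 10 genes, all measured, 0 were at least 2-fold higher and 0 at least 2-fold lower in siHsc70, where 2.29% of all measured genes were at least 2-fold higher and 5.14% at least 2-fold lower. At 1.5-fold, 0 were higher and 1, Sdf2l1, was lower, against 9.65% and 12% of all measured genes, or 1304 higher and 1626 lower genes. With the deposited TPM in place of CPM that split was 868 higher and 2062 lower genes, and the median gene stood at -0.13 on the log2 scale. The members' median difference in log2(CPM + 1), siHsc70 minus siSCR, was 0.043, beside -0.0034 for all measured genes. With the deposited TPM it was -0.097, so its sign depended on the scale. The members' median absolute difference was 0.13, against 0.25 over the 9976 measured genes with a mean level between those of Sdf2l1 and Canx, and 9 of the 10 lay below that value. That range runs from 10.5 to 927 CPM, and Sdf2l1 alone sets its lower end. The other 9 members had means of 86.9 CPM (Xbp1) or more, so the genes compared were not matched to them in level. Summed over the 10 genes, the level was 3517 CPM with siSCR and 3623 CPM with siHsc70, a ratio of 1.03.

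**Figure D2:**
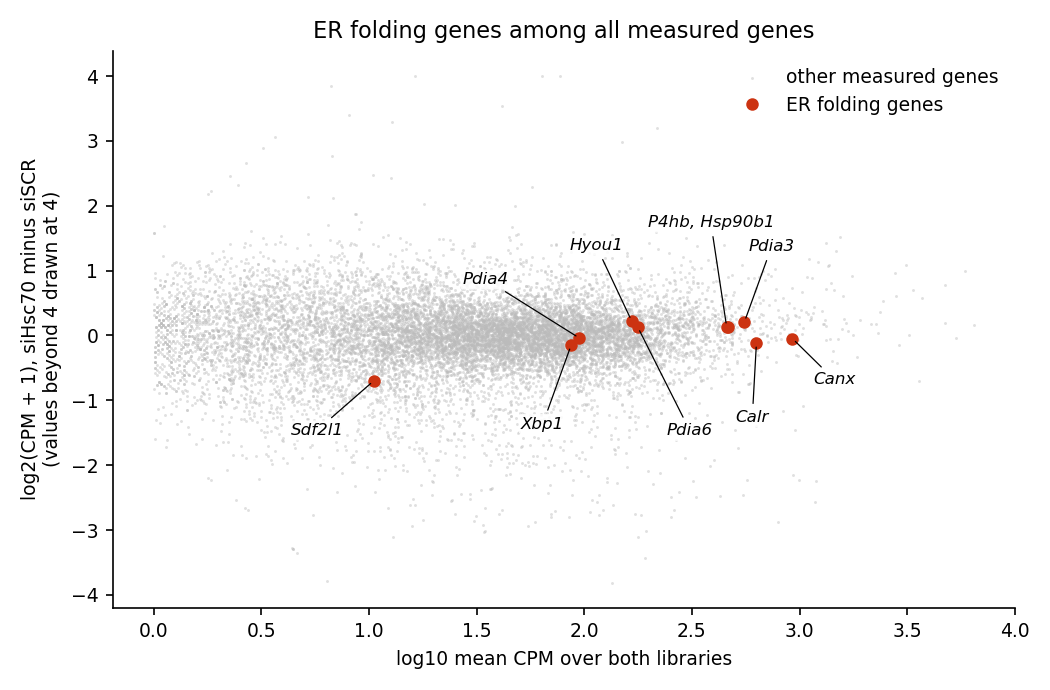
Difference in log2(CPM + 1), siHsc70 minus siSCR (vertical axis), against log10 mean CPM (horizontal axis) for every measured gene (grey) and for the 10 ER folding genes (red). Apart from Sdf2l1 at -0.70, the red points lie between -0.15 and 0.22, inside the band of the other genes.

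Because these genes, apart from Sdf2l1, are abundant, reads alone fix their ratios closely. The 95% exact (Clopper-Pearson) intervals given cover counting error only, and that of Sdf2l1 ran from 0.474 to 0.725. By that measure 5 genes were higher and 4 lower in siHsc70, and the interval of Pdia4 included a ratio of 1. With upper-quartile scaling 2 were lower, Calr and Sdf2l1, and the intervals of Canx and Xbp1 then included 1. Such intervals excluded 1 on the higher side for 32.5% of all measured genes and on the lower side for 33.8%, so the members' 9 of 10 stand beside 66.3% in all. Over the wide range of levels from Sdf2l1 to Canx the share was 71.4%. The spread between cultures is unknown.

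Of the lectin chaperones, Canx encodes calnexin, a membrane protein that binds sugar chains trimmed to a single glucose. It was at 942 CPM with siSCR and 912 CPM with siHsc70, a ratio of 0.968 (0.947 to 0.989), and was the most abundant of the 10 genes in CPM in both libraries. Calr encodes calreticulin, the soluble relative of calnexin, which also buffers calcium in the ER. Its level was 656 CPM with siSCR and 606 CPM with siHsc70, a ratio of 0.923 (0.900 to 0.947). Both lectin genes were thus lower by under 10%, although with upper-quartile scaling Canx lay above 0, at 0.015 on the log2 scale.

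Pdia3 encodes the isomerase that calnexin and calreticulin recruit to glycoproteins, and it differed from both of them in direction. It was at 515 CPM with siSCR and 595 CPM with siHsc70, a ratio of 1.16 (1.12 to 1.19). P4hb encodes protein disulfide isomerase itself, which is also a subunit of the collagen prolyl hydroxylase. P4hb was at 438 CPM with siSCR and 480 CPM with siHsc70, a ratio of 1.09 (1.06 to 1.13), and at 365 and 362 TPM. Pdia6, whose product works with the ER HSP70 BiP and attenuates IRE1, was at 169 and 185 CPM, a ratio of 1.09 (1.04 to 1.15). Pdia4, a larger isomerase with additional thioredoxin-like domains, was at 96.4 CPM with siSCR and 93.6 CPM with siHsc70, a ratio of 0.972 (0.909 to 1.04). Among the 4 isomerases 3 were higher in siHsc70 and the level of Pdia4 could not be separated from siSCR at this depth. For P4hb and Pdia6 the sign depended on the scale: with the deposited TPM both were at -0.010, which is 0.12 above the median gene on that scale.

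**Figure D3:**
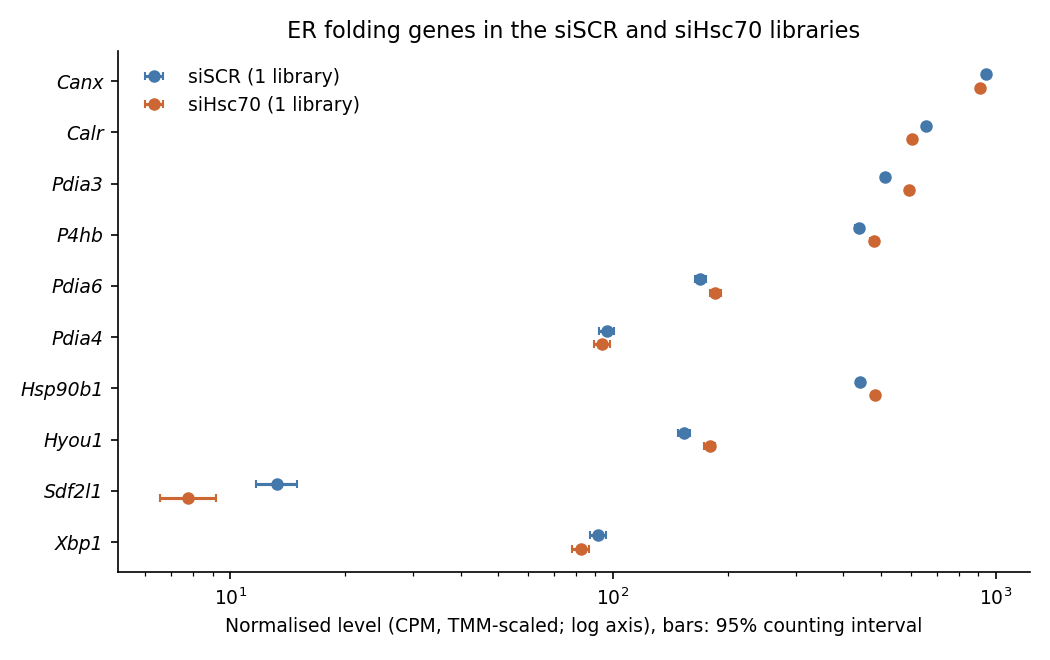
Level of each ER folding gene in the siSCR (blue) and siHsc70 (orange) library, in CPM on a log axis, with 95% counting intervals; each point is 1 library. The pairs lie close together for all genes but Sdf2l1, at 13.3 and 7.78 CPM.

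Among the chaperones, Hsp90b1 encodes the HSP90 of the ER lumen, which folds integrins and Toll-like receptors among other clients. It was at 443 CPM with siSCR and 484 CPM with siHsc70, a ratio of 1.09 (1.06 to 1.13), and like P4hb it was slightly below 0 with the deposited TPM (-0.013, or 0.12 above the median gene). Hyou1, a large HSP70 relative that serves BiP as a nucleotide exchange factor, was at 153 and 179 CPM. Its ratio of 1.17 (1.11 to 1.23) was the highest of the 10 genes.

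Sdf2l1 stood apart. Its product joins the J-domain protein encoded by Dnajb11 in a complex that keeps clients from aggregating. Sdf2l1 was the scarcest member, with estimated counts of 255.11 in siSCR and 140 in siHsc70, or 13.3 and 7.78 CPM. It was 1.70-fold lower in siHsc70 (1.38 to 2.11), a difference of -0.70 in log2(CPM + 1). It was past 1.5-fold under all 8 alternative settings, with differences from -0.87 to -0.64, and its interval is the widest of the 10 because it rests on the fewest reads. Of 2 related genes, chosen after their values were seen, the partner Dnajb11 was at 86.6 and 87.6 CPM, with a ratio interval of 0.944 to 1.08, and the paralogue Sdf2 was higher, at 72.0 and 97.0 CPM.

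Xbp1 encodes the transcription factor whose messenger RNA is spliced by IRE1, the product of Ern1. Xbp1 was at 91.4 CPM with siSCR and 82.3 CPM with siHsc70, 1.11-fold lower (1.04 to 1.19; within counting error under upper-quartile scaling), on a table that counts by gene, so spliced and unspliced forms were not told apart. The 5 genes with an ERSE or ERSE-II match lay on both sides of 0: Calr, Canx and Xbp1 were lower, and Hsp90b1 and Hyou1 were higher.

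**Figure D4:**
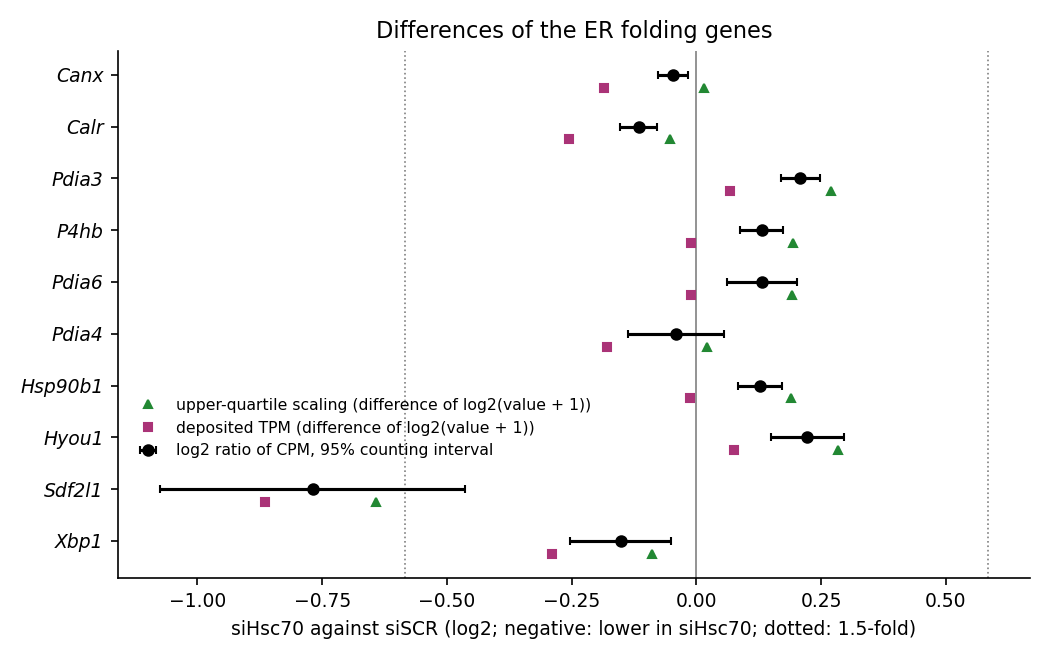
Log2 ratio of siHsc70 to siSCR for each ER folding gene with its 95% counting interval (black), and the log2(value + 1) difference with upper-quartile scaling (green triangles) and with the deposited TPM (purple squares); dotted lines mark 1.5-fold. Every symbol of Sdf2l1 lies beyond 1.5-fold, although its interval reaches inside, while Canx and Pdia4 cross 0 with upper-quartile scaling, and P4hb, Pdia6 and Hsp90b1 with TPM.

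Levels were compared between genes on the deposited TPM, which are scaled for transcript length. In siSCR the order was Calr (758 TPM), Pdia3 (590), Canx (481), P4hb (365), Hsp90b1 (338), Pdia6 (212), Xbp1 (107), Pdia4 (88.7), Hyou1 (74.9) and Sdf2l1 (27.4). In siHsc70 the order was the same except that Hyou1 (79.0 TPM) stood before Pdia4 (78.2 TPM), and these were the 1 of 9 neighbouring pairs whose TPM ratio, 1.01 (0.952 to 1.07), included 1 within counting error. Calr and Pdia3, 1.29 apart as a TPM ratio in siSCR, were only 1.03 apart in siHsc70 (635 and 618 TPM). In each library 5 of the 10 genes were among the 500 genes highest in TPM. The spread from the highest to the lowest member was 27.7-fold in siSCR and 43.5-fold in siHsc70, with Calr at the top and Sdf2l1 at the bottom of both. Together the 10 genes held 0.304% of the TPM in siSCR and 0.284% in siHsc70.

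The wider ER pathway was followed through 139 further genes in 8 lists, of which 137 were measured. Of these, 7 were at least 1.5-fold higher and 2 at least 1.5-fold lower in siHsc70, together 6.57%, against 21.7% of all measured genes. Their median difference was 0.13, and 99 were above 0 and 38 below. With the deposited TPM the medians of 5 of these 8 lists lay below 0 and above the median gene of -0.13.

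The ER HSP70 group held BiP and its helpers, and its median difference was 0.27 (17 genes measured, 1 at least 1.5-fold higher, 0 lower). Hspa5, encoding BiP, was at 517 CPM with siSCR and 681 CPM with siHsc70, a ratio of 1.32 (1.28 to 1.35). Dnajb9, a J-domain cochaperone of BiP and a target of spliced Xbp1, was at 41.5 and 63.8 CPM, a ratio of 1.54 (1.40 to 1.68). Both exceeded in ratio all 10 folding genes, whose highest was 1.17. Manf, a small secreted ER stress protein chosen after its values were seen, was at 81.1 and 117 CPM.

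The other disulfide isomerases and oxidases had a median of 0.21, with 0 of 18 measured genes past 1.5-fold. Qsox1, a sulfhydryl oxidase, was furthest from 0 at 62.6 and 85.1 CPM, a ratio of 1.36 (1.26 to 1.47). Of the genes of glycan trimming and glycoprotein quality control, which act on the same chains as calnexin, 1 of 15 was past 1.5-fold. This was Mogs, the glucosidase that removes the outermost glucose, at 16.1 CPM with siSCR and 10.3 CPM with siHsc70, 1.56-fold lower (1.30 to 1.88), and the list's median was 0.10.

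The ER prolyl isomerases and the collagen chaperone had the highest median of the ER lists, 0.37, with 9 of 9 measured genes above 0 and 3 at least 1.5-fold higher. Serpinh1, encoding the heat-inducible, collagen-specific chaperone HSP47, was at 154 CPM with siSCR and 437 CPM with siHsc70, a ratio of 2.84 (2.72 to 2.96). Ppic, a cyclophilin, was at 27.5 and 55.0 CPM, a ratio of 2.00 (1.80 to 2.23). Of 8 fibroblast and mural markers 5 were measured, with summed levels of 42.7 CPM with siSCR and 107 CPM with siHsc70. Among the 5, 4 were at least 1.5-fold higher, and Col3a1 was at 2.29 and 1.83 CPM (ratio interval 0.495 to 1.29). Lum was at 0 in siHsc70 and at 2 counts in siSCR, and Dcn was at 9 counts in siSCR and 1 count in siHsc70. The part of such cells in the Serpinh1 value was not tested.

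Among 20 ER-associated degradation genes, which return misfolded chains to the proteasome, the median was 0.052, with 0 at least 1.5-fold higher and 1 lower. That gene was Derl3, encoding a derlin of the retrotranslocation channel, at 5.41 CPM with siSCR and 1.28 CPM with siHsc70, 4.23-fold lower (2.67 to 6.96), from estimated counts of 103.71 and 22.76. Herpud1, a stress-induced scaffold of that machinery, was at 82.9 and 72.9 CPM, a ratio of 0.879 (0.816 to 0.946).

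The sensors of the unfolded protein response differed by less than 10% between the libraries. Ern1 was at 42.3 CPM with siSCR and 44.4 CPM with siHsc70 (ratio 0.951 to 1.16), and Eif2ak3, encoding PERK, at 46.0 and 44.5 CPM (0.879 to 1.07). Atf6 was at 188 and 201 CPM, a ratio of 1.07 (1.02 to 1.12). Downstream of PERK, Atf4 was at 436 and 539 CPM, a ratio of 1.24 (1.20 to 1.27), while Ddit3, encoding the proapoptotic factor CHOP, was at 48.7 and 48.3 CPM (0.904 to 1.09). The 2 of 18 genes in this list past 1.5-fold, both higher, were Ppp1r15a, a stress-induced phosphatase subunit (185 and 335 CPM; ratio 1.81, 1.73 to 1.88), and Wfs1, an ER membrane protein (14.4 and 25.6 CPM; ratio 1.78, 1.53 to 2.07).

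Of 23 genes of the translocon, signal peptidase and oligosaccharyltransferase, 0 were past 1.5-fold, and the median was 0.11. Sec11c, a signal peptidase subunit, was furthest from 0 at 65.3 and 48.1 CPM, a ratio of 0.736 (0.674 to 0.803). Of 17 export and retrieval genes, 1 was past 1.5-fold: Kdelr3, a receptor that returns escaped ER chaperones from the Golgi, at 11.1 CPM with siSCR and 27.2 CPM with siHsc70, a ratio of 2.44 (2.08 to 2.88).

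The cytosolic list holds heat shock response genes and does not stand for all chaperones outside the ER. Of 18 measured, 14 were at least 1.5-fold higher and 1, the targeted Hspa8, was lower, with a median of 0.92, beside 0 of 10 higher and 1 lower among the ER folding genes. Hsp90aa1, the cytosolic relative of Hsp90b1 and chosen after its values were seen, was at 801 CPM with siSCR and 2292 CPM with siHsc70, a difference of 1.52 on the log2 scale against 0.13 for Hsp90b1. The inducible HSP70 genes Hspa1a (1.56 and 24.1 CPM) and Hspa1b (42.2 and 395 CPM), near-identical copies whose reads can be shared, differed by 3.29 and 3.20. With 1 library per group the contrast between the lists was not tested.

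**Figure D5:**
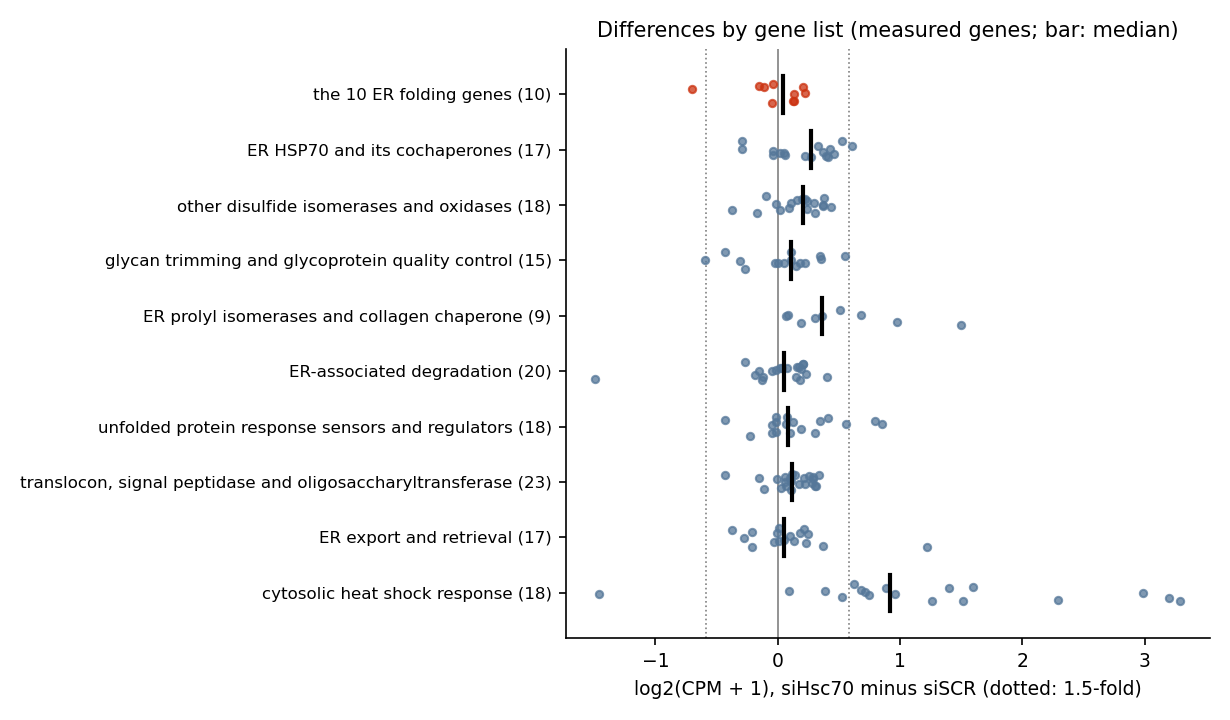
Difference in log2(CPM + 1), siHsc70 minus siSCR, of each measured gene (points) in the ER folding genes (red) and 9 other lists (blue), with the median of each list (black bar), the number of genes in brackets and 1.5-fold as dotted lines. All the folding genes but Sdf2l1 lie between the dotted lines, whereas 14 of 18 cytosolic heat shock genes lie beyond the upper one.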

How the data were processed

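RNA-seq of 2 rat samples was used, siSCR and siHsc70, with 1 library each. The authors deposited 1 table with estimated counts, TPM and FPKM per gene, per the file headers; the counts need not be whole (4 of the 10 members had a non-whole count in siSCR and 3 in siHsc70). Not given in the sources used here are the aligner, the quantifier, the annotation and whether strand was used. A mouse build, mm39, stands in the submitters' processing notes, although 16783 of 18049 gene IDs matched rat RefSeq genes (GRCr8), so coordinates are given only for RefSeq promoters.

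Counts were rounded, scaled with TMM (edgeR 4.0.16, R 4.3.3; factors 1.01 for siSCR and 0.992 for siHsc70) and compared as log2(CPM + 1). A count of 3, the limit that a count of 0 allows, is 0.156 CPM with siSCR and 0.167 CPM with siHsc70. Ratios are of normalised counts, with counting intervals from scipy 1.17.1. The procedure was tested on simulated counts that held counting error only, so that test cannot speak to the spread between cultures. Genes were looked up by deposited symbol and otherwise, for 6 of 214 list entries, by the RefSeq symbol of the gene ID; 4 had no row. The 10 members and all lists were chosen with earlier results of these data known. Named were the members, 9 genes in any case, and from each list up to 2 genes each way past 1.5-fold, or else the gene furthest from 0. Alternatives were 3 scalings (DESeq2 1.42.0 size factors among them), another pseudocount, 2 filters and the deposited TPM and FPKM.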

Additional observations from a re-analysis of the deposited data

How the results depend on the processing

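Under 8 alternative settings the members' counts past 2-fold and past 1.5-fold kept their values (0 and 0, and 0 higher and 1 lower). Their median, 0.043 with TMM scaling, ran from -0.097 with the deposited TPM to 0.11 with upper-quartile scaling. The sign of the median thus depended on the scale. With upper-quartile scaling 2 members, against 4, were lower beyond counting error, and Canx was at 0.015 in place of -0.047. With the deposited TPM, where the median gene was at -0.13, P4hb (-0.010), Pdia6 (-0.010) and Hsp90b1 (-0.013) lay below 0; Pdia4, within counting error, was at 0.021 with upper-quartile scaling. Relative to the median gene of each setting, these genes kept their side of 0. Over all genes, 518 were at least 2-fold higher with a pseudocount of 0.1 CPM, 189 with TPM and 202 with FPKM, against 310; at least 2-fold lower were 898, 795 and 515, against 695. No row was named as a pseudogene of a member (0 found), so that alternative gave no value. No paired analysis was possible because each group has 1 library, and no library could be left out. Among the members depth limits Sdf2l1 most, whose ratio interval is the widest of the 10.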

Other observations

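A complete ERSE was also found in the promoter windows of 12 measured genes outside the 10 members. Their median difference was -0.14, beside -0.0038 for all 10645 measured genes with a window, and they ranged from -1.49 (Derl3) to 0.94. Past 1.5-fold, 3 were lower, Derl3, Birc5 and Pan2, and 1, Zfand2a, was higher. Birc5, a mitotic survival gene, was at 8.0 CPM with siSCR and 4.84 CPM with siHsc70. Pan2, a deadenylase subunit gene, was at 45.6 and 29.5 CPM, and Zfand2a, a stress-induced proteasome-associated gene, at 86.6 and 167 CPM. For comparison, the shares of the whole measured set beyond that limit were 12% on the lower side and 9.65% on the higher side. Whether these 12 genes depart from those shares was not tested. In the ER lists the ERSE genes were Hspa5 (517 and 681 CPM), Dnajc3 (23.1 and 28.1 CPM), Creld2 (25.6 and 24.9 CPM), Ero1b, an oxidase that reoxidises disulfide isomerases (14.2 and 12.6 CPM), and Derl3 (5.41 and 1.28 CPM). Among genes with a window, the lists of glycan trimming (0 of 14), prolyl isomerases (0 of 8) and unfolded protein response regulators (0 of 15) held none. The same was true of the translocon (0 of 20), export (0 of 12) and cytosolic heat shock (0 of 13) lists. Over all genes with a window the share was 0.0765%. Genes named in this part were chosen after their values were seen.

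Within the export list, the genes of the COPII coat and its GTPase lay on both sides of 0 in CPM. Of these, Sec23a (122 CPM with siSCR and 94.2 CPM with siHsc70), Sec24a (118 and 96.8 CPM), Sec24b (110 and 95.3 CPM) and Sec24c (181 and 156 CPM) were lower, with ratio intervals below 1. Sec13 (54.3 and 59.6 CPM) and Sec23b (96.1 and 103 CPM) were higher, with intervals above 1. With the deposited TPM both lay below 0, at -0.0078 and -0.043 on the log2 scale, where the median gene was at -0.13. The intervals of Sec31a (190 and 197 CPM), Sec24d (49.9 and 49.5 CPM), Sar1a (186 and 187 CPM) and Sar1b (109 and 110 CPM) included 1. The cargo receptor genes Tmed2 (272 and 324 CPM), Tmed10 (202 and 235 CPM) and Surf4 (225 and 264 CPM) were higher as well. Such intervals excluded 1 for 66.3% of all measured genes, so an interval on either side of 1 does not set a coat gene apart. The differences given here were below 1.5-fold and were not tested.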
